A study of Caenorhabditis elegans with 2 samples.

Results

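The X chromosome carried 503 of the 2720 peaks (18.5%) of a chromatin immunoprecipitation and sequencing (ChIP-seq) experiment on NHR-6 in Caenorhabditis elegans, and all 503 are described here against the 2217 peaks on the 5 autosomes. Members were taken by chromosome alone, from the authors' list of peaks in build ce11 that passed their reproducibility threshold. Peak signal entered through that threshold, since the lowest X signal inside the list, 27.53, was above all those outside it. Within the list neither signal nor sequence entered the choice. Of the 503 members, 501 overlapped a peak of replicate 1 and 502 a peak of replicate 2. The material was entire L4 larvae of both sexes, pooled, of strain OP90, genotype unc-119(ed3) III; wgIs90, in which an integrated transgene supplies an eGFP-tagged NHR-6. There was 1 group of 2 biological replicates, all worms carried the same alleles, and no untagged strain or other factor was analysed here. Peaks therefore cannot be set against a condition, and the comparisons are between chromosomes of the same worms. Whole animals mix many cell types, so a peak may come from a few cells. The sources used here do not give the insertion site of wgIs90, and whether it touches any X peak was not tested.

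NHR-6 belongs to the NR4A nuclear receptors, a family conserved in mammals whose proteins can bind DNA as monomers at the letters AAAGGTCA; in the worm it is known for a role in the spermatheca. The X chromosome of C. elegans is the sex chromosome: hermaphrodites have a pair and males a single copy. In hermaphrodites a condensin-like dosage compensation complex binds both X chromosomes and lowers their transcription, and it is loaded at recruitment sites on X that hold copies of the MEX motif, whose core is CGCAGGG. X is also known to be poor in genes used in the germ line and in operons, and rich in tRNA genes.

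Several of the strongest X peaks away from gene starts share letters that can be read in the sequence itself. The peaks are numbered by signal on X, from Xpeak1 downward, where signal is the authors' own value per peak on a scale that the sources used here do not give. The 6 sequences that follow run from 50 bases before to 50 bases after the summit, in build ce11, read 5′ to 3′ on the strand on which CGCAGGG, in capitals, reads forward. They are at chrX:6296538-6296638 on the plus strand, chrX:2997069-2997169 and chrX:11094136-11094236 on the minus strand, chrX:4209257-4209357 on the minus strand, and chrX:8036356-8036456 and chrX:806607-806707 on the plus strand. They are shown as examples in which the core is preceded by TCG and the summit lies outside every promoter window, which here reaches 1000 bp upstream and 200 bp downstream from where the annotation starts a protein-coding gene (its 5′ end).
Xpeak2: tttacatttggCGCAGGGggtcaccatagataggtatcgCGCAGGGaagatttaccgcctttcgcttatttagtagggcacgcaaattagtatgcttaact
Xpeak3: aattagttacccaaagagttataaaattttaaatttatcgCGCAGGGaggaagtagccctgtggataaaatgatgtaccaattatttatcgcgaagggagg
Xpeak4: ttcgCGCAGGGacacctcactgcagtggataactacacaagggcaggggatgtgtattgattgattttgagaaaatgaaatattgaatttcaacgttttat
Xpeak10: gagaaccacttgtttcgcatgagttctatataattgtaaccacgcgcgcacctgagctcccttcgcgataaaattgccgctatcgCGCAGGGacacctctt
Xpeak13: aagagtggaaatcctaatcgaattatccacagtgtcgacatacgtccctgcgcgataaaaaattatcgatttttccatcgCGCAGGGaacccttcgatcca
Xpeak15: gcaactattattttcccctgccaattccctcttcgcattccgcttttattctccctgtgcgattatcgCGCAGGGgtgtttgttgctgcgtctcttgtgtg
Xpeak2 carries the core at 2 places within these 101 bases. Xpeak13 holds a further copy on the other strand, printed in lower case as ccctgcg. Xpeak12 and Xpeak117 fit the same description and are not printed.

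Other strong X peaks show other letters. Xpeak5, at chrX:13700800-13700900 on the minus strand, and Xpeak9, at chrX:1389551-1389651 on the minus strand, lack the core and share GTGGATA, in capitals. GTGGATA is also present in lower case in Xpeak3 and Xpeak4 above, and on the other strand, as tatccac, in Xpeak13. Xpeak6, at chrX:17146740-17146840 on the plus strand, holds the NR4A letters AAAGGTCA, in capitals, directly at its summit. The strongest X peak of all, upstream of puf-9 at chrX:5841266-5841366 on the plus strand, has none of these.
Xpeak5: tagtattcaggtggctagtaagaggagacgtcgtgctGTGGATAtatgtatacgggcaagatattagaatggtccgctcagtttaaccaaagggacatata
Xpeak9: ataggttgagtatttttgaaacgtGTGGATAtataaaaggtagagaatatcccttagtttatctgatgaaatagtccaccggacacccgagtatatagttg
Xpeak6: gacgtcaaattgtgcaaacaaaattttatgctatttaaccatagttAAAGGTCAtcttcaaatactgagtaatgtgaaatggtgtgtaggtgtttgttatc
puf-9: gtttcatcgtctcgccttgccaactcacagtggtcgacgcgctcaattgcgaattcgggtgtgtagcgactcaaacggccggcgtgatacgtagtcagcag

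The MEX core was found at 19 X summits, against 19 autosomal summits, within 50 bp and on either strand. That is 3.78% of X summits (Wilson 95% interval 2.43 to 5.82%) and 0.857% of autosomal summits (0.549 to 1.34%), with 1.4% over the whole list. The difference of 2.92 percentage points had an interval of 1.49 to 4.99, and single autosomes ranged from 0.463% to 1.34%. Cut into tiles of the same 101 bases, 0.156% of X and 0.152% of the autosomes hold the core, so the letters themselves were about as frequent on both. These intervals, and all those below, cover the counting of peaks or genes only. Among its 2720 strongest peaks, replicate 1 had 18 X summits with the core (3.62%) and 15 autosomal ones (0.675%), and replicate 2 had 17 (3.28%) and 15 (0.682%). The size of the difference moved with the number of peaks taken, to 6.16 points in the stronger 1360 peaks of the list and to 0.28 points (0.086 to 0.54) in the relaxed pooled list of 30000 peaks.

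The contrast grew with the length of the match. Of 301 copies of CGCAGGG on X, 21 lay within 50 bp of a summit (6.98%, 4.61 to 10.4%), against 19 of 1329 copies on the autosomes (1.43%, 0.917 to 2.22%). With 1 more base in front, GCGCAGGG, 16 of 81 X copies were under a summit (19.8%) and 0 of 233 autosomal copies were, which allows a share of up to 1.62% by the Wilson interval. For CGCGCAGGG the counts were 13 of 33 X copies (39.4%) and 0 of 44 autosomal copies. For the 10 bases TCGCGCAGGG they were 11 of 19 X copies (57.9%, 36.3 to 76.9%) and 0 of 6 autosomal copies, too few for a firm autosomal share, whose interval reached 39.03%. Each longer string contains the shorter ones, so these counts are nested. In the relaxed pooled list of 30000 peaks, 12 of the 19 X copies of the longest form and 0 of the 6 autosomal copies lay under a summit. The shorter forms did have autosomal copies under a summit there. For CGCAGGG they were 88 of 1329 (6.62%, against 12.6% on X). For GCGCAGGG they were 14 of 233 (6.01%, against 27.2%), and for CGCGCAGGG 2 of 44 (4.55%, against 48.5%).

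**Figure D1:**
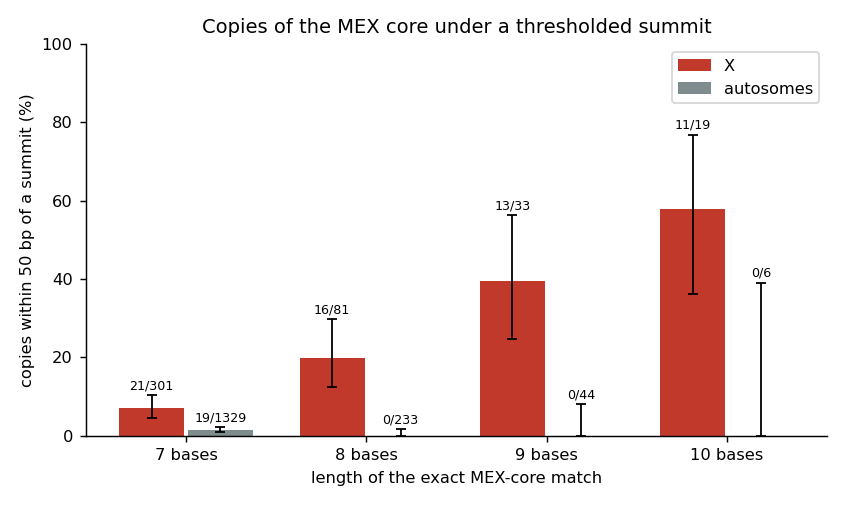
Percent of all exact copies of the MEX core, at 4 match lengths, that lie within 50 bp of a thresholded summit, on X (left bar of each pair) and on the autosomes (right bar). Error bars are Wilson 95% intervals, and the numbers printed over them are copies under a summit over all copies. On X the percent is higher at each longer match, up to 11 of 19 copies, while on the autosomes no copy longer than 7 bases lies under a summit.

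The X summits with the core were mostly away from gene starts and had high signal. Outside promoter windows, 14 of 262 X summits (5.34%) held it, against 4 of 890 autosomal summits (0.449%), a difference of 4.89 points (2.65 to 8.33). Inside promoter windows the counts were 5 of 241 on X (2.07%) and 15 of 1327 on the autosomes (1.13%), a difference of 0.944 points whose interval included 0 (−0.446 to 3.67). The 19 X peaks had signals from 28.4 to 134.1 with a median of 70.4, whereas the 19 autosomal ones ran from 28 to 112.5 with a median of 38.6. Their median distance from the nearest 5′ end was 1382 bp on X, against 230 bp on the autosomes. Of the X set, 12 were intergenic and 5 intronic, and they were scattered along the chromosome from 4.6% to 94.1% of its length. Of these 19, 18 were among the 2720 strongest peaks of both replicates.

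The replicates gave the individual peaks as follows, each on its own list's scale. Xpeak2 had a signal of 83.4 in replicate 1 and 51.5 in replicate 2, in an intron with its nearest gene start, that of cest-16, 3354 bp away. Xpeak3 had 71.2 in replicate 1 and 79.6 in replicate 2, also in an intron. Xpeak4, between genes and 4000 bp from W02H3.3, had 70.55 in replicate 1 and 58.7 in replicate 2. All 3 ranked among the strongest 100 peaks of each replicate. Xpeak7 was uneven, with 28.1 in replicate 1 (rank 630) and 91.65 in replicate 2 (rank 7). Xpeak12 was uneven in the same direction, with 34.4 in replicate 1 (rank 334) and 72.9 in replicate 2 (rank 21). Xpeak13 had 59.6 in replicate 1 and 44.9 in replicate 2, and lay 4907 bp upstream of xol-1, the gene that switches sexual fate and dosage compensation.

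The genes that count X chromosomes and set dosage compensation themselves were mixed. sdc-2, whose protein brings the dosage compensation complex to X, had a promoter peak of signal 56.0 centred 395 bp upstream of its 5′ end (36.5 in replicate 1, 22 in replicate 2). sdc-1, a partner of sdc-2, had one of 40 centred 313 bp upstream (16.8 in replicate 1, 21.8 in replicate 2). The other 4 genes of the list, xol-1 and the X signal elements sex-1, fox-1 and ceh-39, had no summit in their promoter windows. Their nearest X summits were 4690 bp, 7931 bp, 19997 bp and 2390 bp away in that order. The 2 of 6 with a peak may be read against 10.5% of all 19973 protein-coding genes.

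GTGGATA was noticed in the strongest X peaks and counted afterwards, so its counts are a description of those peaks. It lay within 50 bp of 11 X summits (2.19%) and 7 autosomal summits (0.316%), while 0.736% of X tiles and 0.770% of autosomal tiles hold it. Of the 25 strongest X peaks, 9 had the MEX core, 6 had GTGGATA and 4 had both. Together they marked 11 of the 15 peaks outside promoter windows in that set. Of the 25 strongest autosomal peaks, 0 had either.

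Most X peaks with a signal over 100 stood away from promoters, whereas most autosomal peaks with such a signal did not. The very top of the list went the other way. The highest signal of an autosomal promoter peak was 199.2, on II. All autosomal peaks above it, up to 1433.5, were on III and lay outside promoter windows. The highest signals of the other autosomes ran from 142.9 on I to 199.2 on II. The strongest X peak, of 160.1, lay inside one. Among X peaks with a signal over 100, 12 of 14 lay outside promoter windows (85.7%, 60.1 to 95.99%), against 13 of 58 autosomal peaks (22.4%, 13.6 to 34.7%). Among the 100 strongest peaks of the whole list, 14 of 19 on X (73.7%) and 17 of 81 on the autosomes (20.99%) were outside, a difference of 52.7 points (28.1 to 69.0). With the peaks holding the MEX core left out, the difference was 33.3 points (4.88 to 58.6). Among the 200 strongest, 19 of 37 X peaks (51.4%) and 38 of 163 autosomal peaks (23.3%) were outside, a difference of 28.04 points (11.05 to 44.3). For the 100 strongest of single replicates the difference was 30.1 points with replicate 2 alone and 36.6 points with replicate 1 alone. This comparison was chosen after the signals were seen. In each band below a signal of 100 the gap was narrower than above it, but uneven. Between 80 and 100, 5 of 18 X peaks (27.8%) and 20 of 82 autosomal peaks (24.4%) were outside. Between 60 and 80 the counts were 18 of 43 (41.9%) and 58 of 201 (28.9%). Between 40 and 60 they were 68 of 160 (42.5%) and 265 of 714 (37.1%). Up to 40 they were 159 of 268 (59.3%) and 534 of 1162 (46.0%).

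**Figure D2:**
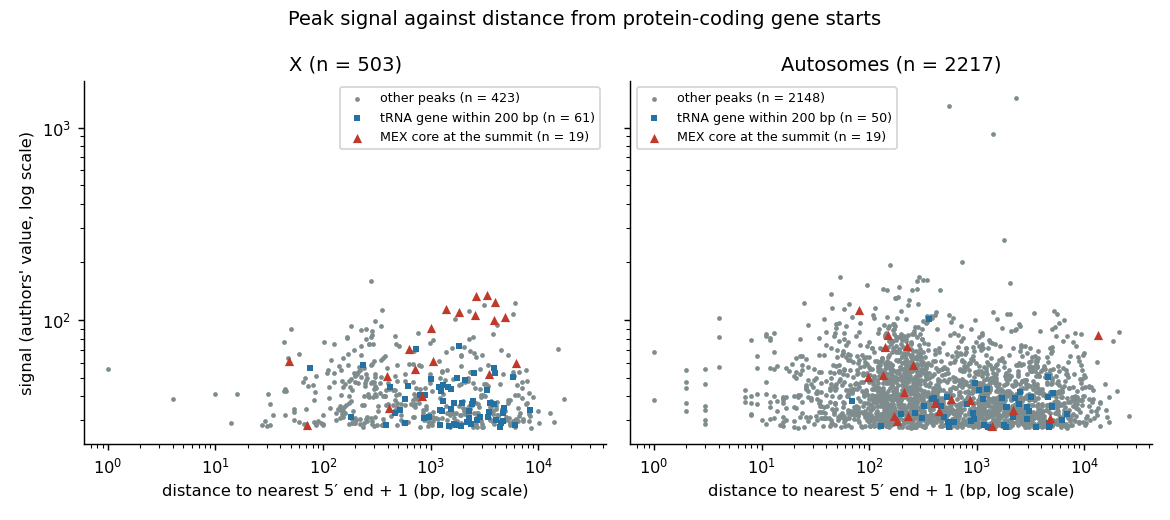
Signal of each peak (authors' value, log scale) against the distance in bp from its summit to the nearest 5′ end of a protein-coding gene (log scale), for 503 X peaks on the left and 2217 autosomal peaks on the right. Red triangles have the MEX core within 50 bp of the summit and blue squares a tRNA gene within 200 bp. Of the 19 red triangles of X, 9 are among the 25 strongest X peaks and 14 lie outside promoter windows, and the blue squares of X stay at or below a signal of 72.8.

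Over the whole list X signals were close to those of the autosomes. They had a minimum of 27.5, a median of 38.2 and a maximum of 160.1. The autosomes had a minimum of 27.5, a median of 39.2 and a maximum of 1433.5, on III. The log2 ratio of the medians was −0.04. The lowest X signal inside the list was 27.53 and the highest X signal just outside it, among 5097 relaxed X peaks, was 27.39, so the list ends within a continuous range. The −log10 q-value was 3.91 for all 503 X peaks and could not order them. Of 5600 X peaks in the relaxed list, 8.98% were in the thresholded one, against 9.09% of 24400 autosomal peaks and 9.07% of all.

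Support by both replicates was compared at equal list lengths. On X, 273 of 503 peaks (54.3%, 49.9 to 58.6%) were among the 2720 strongest of both replicates, against 1183 of 2217 on the autosomes (53.4%, 51.3 to 55.4%), a difference of 0.914 points (−3.92 to 5.70). Taken over the strongest 5000 of each replicate, the difference was 4.12 points (0.31 to 7.52). Spearman's rho between the replicates' signals was 0.39 over 500 matched X peaks and 0.26 over 2181 matched autosomal peaks. These are descriptions, since all peaks come from the same pair of libraries and the list was selected on both.

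**Figure D3:**
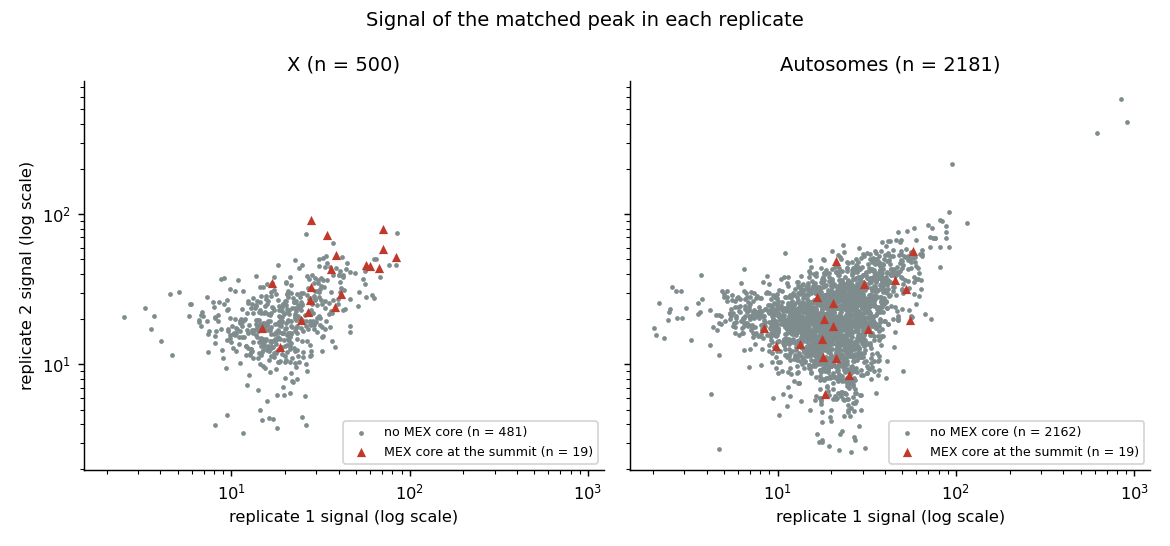
Signal of the peak matched in replicate 1 (x axis, log scale) and in replicate 2 (y axis, log scale), each point a thresholded peak, with 500 X peaks on the left and 2181 autosomal peaks on the right. Red triangles have the MEX core within 50 bp of the summit. On X 18 of the 19 triangles are among the 2720 strongest peaks of both replicates, and Xpeak7 and Xpeak12 rank higher in replicate 2 than in replicate 1.

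X peaks were about as dense along the sequence as autosomal peaks, on a chromosome with fewer genes. There were 28.4 peaks per Mb on X and 26.9 on the autosomes, a ratio of 1.06 (exact conditional binomial 95% interval 0.96 to 1.17). Single autosomes ran from 22.1 per Mb on IV to 32.6 on III, on both sides of X. X had 154 protein-coding genes per Mb, against 209 on the autosomes, and so 18.4 peaks per 100 genes, against 12.9. The strongest 2720 peaks of replicate 1 gave X 28.05 peaks per Mb and those of replicate 2 gave 29.3.

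By promoter share and median distance, X peaks sat farther from gene starts than those of each autosome. Of the X summits 241, or 47.9% (43.6 to 52.3%), were in promoter windows, against 1327 autosomal summits, or 59.9% (57.8 to 61.9%), a difference of −11.9 points (−16.7 to −7.12). The 5 autosomes ranged from 56.7% to 62.0%. Promoter windows cover 17.6% of X and 22.3% of the autosomes, so summits were above the share of sequence on both. X thus also has less sequence in such windows, and the part of this in its lower promoter share was not tested. The median distance to a 5′ end was 874 bp on X, against 413 bp on the autosomes, which ranged from 345 to 498.5 bp. Summits more than 2000 bp from any 5′ end made up 32.8% of X peaks and 22.7% of autosomal peaks, a difference of 10.1 points (5.72 to 14.6). Leaving out summits near tRNA genes gave promoter shares of 51.8% on X and 60.7% on the autosomes.

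**Figure D4:**
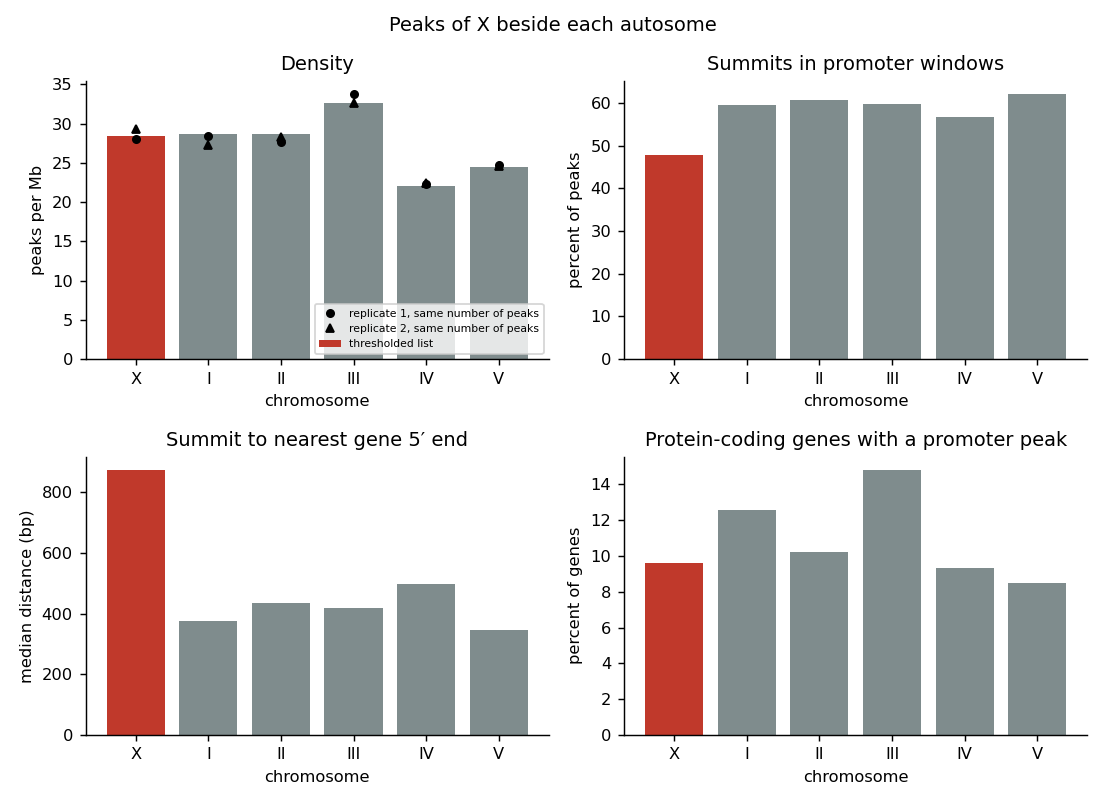
X (red, leftmost) beside each autosome (grey): peaks per Mb, percent of summits in promoter windows, median distance in bp from summit to nearest gene 5′ end, and percent of protein-coding genes with a promoter peak. In the density panel circles and triangles give the same number of strongest peaks from replicate 1 and replicate 2. X falls within the range of the autosomes for density and for genes with a peak, and outside it for promoter share and distance.

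X promoter peaks were less often shared by neighbouring genes. In all, 25 of the 241 X promoter summits (10.4%) were in the windows of more than 1 gene, against 508 of 1327 autosomal ones (38.3%). Over all peaks that is 4.97% on X and 22.9% on the autosomes, a difference of −17.9 points (−20.3 to −15.1). Windows of more than 1 gene cover 0.888% of X and 2.68% of the autosomes.

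By feature class, X and autosomal peaks of the thresholded list had similar shares between genes and in introns. Intergenic summits made up 65.8% on X and 66.3% on the autosomes, although intergenic sequence is 41.0% of X and 31.6% of the autosomes. Intronic summits made up 20.1% on X and 20.5% on the autosomes. In the relaxed pooled list both classes differed, intergenic summits by 7.26 points (5.82 to 8.70) and intronic ones by −2.78 points (−4.11 to −1.43). Coding exons held 6 X summits (1.19%) and 33 autosomal ones (1.49%), 5′ UTRs 16 (3.18%) and 98 (4.42%), and 3′ UTRs 3 (0.596%) and 33 (1.49%). Noncoding genes held 46 X summits (9.15%) and 130 autosomal ones (5.86%), a difference of 3.28 points (0.824 to 6.26).

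tRNA genes, short genes transcribed by RNA polymerase III from promoters within the gene, accounted for 21 of these 46 summits. X carries 276 of the 612 annotated tRNA genes of the nuclear chromosomes. A summit lay within 200 bp of 69 of them (25%, 20.3 to 30.4%), against 54 of 336 autosomal tRNA genes (16.1%, 12.5 to 20.4%) and 20.1% of all. The difference was 8.93 points (2.52 to 15.4), but 3.95 points with an interval including 0 (−2.39 to 10.4) when replicate 2 was used alone and 2.89 points (−4.35 to 9.97) in the relaxed pooled list. Each autosome with its 57 to 78 genes ran from 12.3% to 19.7%. Counted by peaks, 61 X summits (12.1%) and 50 autosomal summits (2.26%) were near a tRNA gene.

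The X tRNA peaks were close to the gene and weak, with a median signal near that of the autosomal ones. Signals on X ran from 27.7 to 72.8 with a median of 35.0. On the autosomes they ran from 27.6 to 101.5 with a median of 35.2. A tRNA gene contained 27 of the 61 X summits. Of the 69 genes, 35 had the summit upstream of the 5′ end, and the median summit was 2 bp upstream. The highest was Xpeak46, between the divergent tRNA genes WBGene00023110, 29 bp from its 5′ end, and WBGene00023111, 88 bp from its 5′ end. It ranked 387 in replicate 1 and 298 in replicate 2. Its 101 bases, at chrX:3036085-3036185 on the plus strand, are shown because they run from the spacer into the first of these genes.
Xpeak46: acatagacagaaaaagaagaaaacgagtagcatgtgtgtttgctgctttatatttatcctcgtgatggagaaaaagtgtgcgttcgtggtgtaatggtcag

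Genes of other noncoding RNAs on X were compared in the same way. Of 33 X snoRNA genes 1 had a summit within 200 bp (3.03%), against 73 of 313 autosomal ones (23.3%), a difference of −20.3 points (−25.9 to −7.26). Of 74 X microRNA genes 2 had one (2.70%), against 9 of 187 on the autosomes (4.81%), and of 38 X lincRNA genes 4 had one (10.5%), against 11 of 156 (7.05%). The 3 X snRNA genes had none, too few to state a share.

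Along the chromosome X peaks were spread evenly, whereas autosomal peaks gathered in the centre. The central 50% of X held 249 of its summits (49.5%, 45.15 to 53.9%), against 1416 on the autosomes (63.9%, 61.85 to 65.8%), a difference of −14.4 points (−19.1 to −9.56). The autosomes ran from 57.7% on III to 75.7% on V. Cut into 10 equal pieces of length, each piece of X held 43 to 60 peaks, a ratio of 1.40 between the fullest and the emptiest, against ratios from 2.04 on III to 9.69 on V. The longest stretch of X without a summit was 226.7 kb, against 339.5 to 693.5 kb on the autosomes. The fullest piece of X was the eighth, with 60 peaks and 53 tRNA genes, and the fifth followed with 59 peaks and 54 tRNA genes. The last piece had 57 peaks and the fewest genes, 199, and the seventh had 47 peaks and the most, 327.

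**Figure D5:**
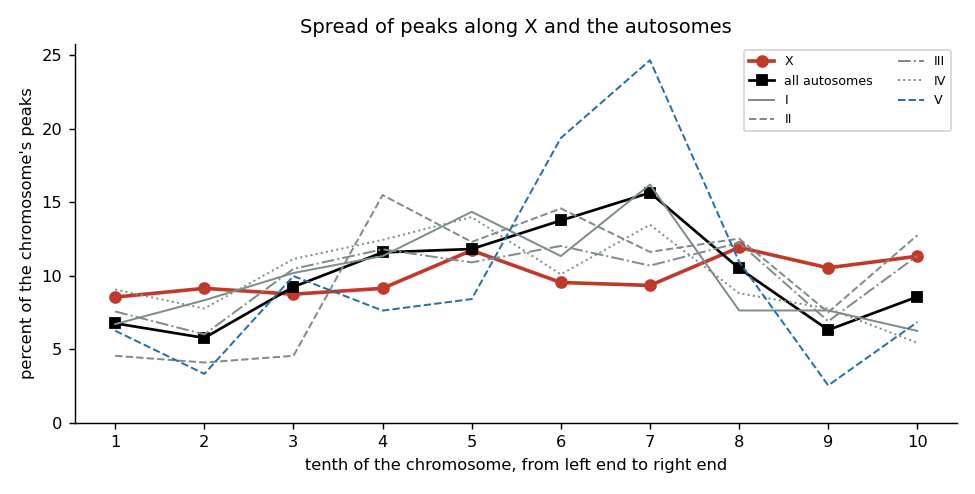
Percent of each chromosome's peaks that lie in each of 10 equal pieces of its length, from the left end to the right end, for X (red circles), all autosomes together (black squares) and each autosome (thin lines). X stays between 8.55% and 11.9%, and the autosomes together reach 15.7% in the seventh piece and fall to 5.77% in the second.

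puf-9 and rpl-11.2 had the highest promoter signals of X. In all, 262 of 2731 X protein-coding genes (9.59%) had a summit in the promoter window, against 1835 of 17242 autosomal genes (10.6%), a difference of −1.05 points whose interval included 0 (−2.20 to 0.198). puf-9, a Pumilio-family RNA-binding protein gene, had the highest signal of X, 160.1, centred 276 bp upstream of its 5′ end, with 84.5 in replicate 1 (rank 11) and 75.04 in replicate 2 (rank 18). rpl-11.2, a large-subunit ribosomal protein gene, followed with 112.2 (63.2 in replicate 1, 50.3 in replicate 2). Both were high in both replicates.

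Several of the next promoter peaks of X were uneven between replicates. serp-1.1 had a signal of 98.2 (26.1 in replicate 1, 73.4 in replicate 2). pkhm-2 had 93.3 (62.8 in replicate 1, 27.5 in replicate 2), so the 2 genes leaned in opposite directions. selt-1.1, a selenoprotein T-like gene, had 93.2 (37.0 in replicate 1, 64.6 in replicate 2). hsp-3, which encodes an endoplasmic reticulum chaperone of the BiP type, had 90.1 with the summit 49 bp upstream (41.5 in replicate 1, 51.8 in replicate 2). asb-2, an ATP synthase subunit gene, had 89.4 (56.0 in replicate 1, 34.1 in replicate 2). A peak of 88.1 lay between the divergent genes trap-2, of the translocon-associated complex, and ile-2, an intracellular lectin (34.0 in replicate 1, 52.4 in replicate 2). sucl-1, of succinyl-CoA ligase, had 87.3 (32.8 in replicate 1, 51.4 in replicate 2), and cebp-1, a C/EBP-type bZIP factor, had 85.1 (56.9 in replicate 1, 28.3 in replicate 2). With puf-9 and rpl-11.2 these are all the genes with a promoter window holding one of the 25 strongest X peaks.

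By gene group, the lists of basic cell function have few genes on X, and their counts may be read against 9.59% of all X genes. The 3 X genes of the respiratory chain and ATP synthase list, which does not include asb-2, all had a promoter peak: ucr-2.2 (65.7) and ucr-2.1 (43.7), of complex III, and sdha-1 (37.9), of complex II. The last was carried by replicate 2, with 36.9 there and 8.7 in replicate 1. The 3 translation factor genes all had one too, the elongation factor eef-1A.2 (64.8) and the cap-binding proteins ife-2 (52.7) and ife-4 (50.3). Of 3 V-ATPase genes 2 did, vha-12 (60.9) and vha-15 (47.5), of 5 chaperone genes 2, hsp-3 and dnj-14 (57.2), and of 2 ribosomal protein genes 1. Autosomal genes of these lists had peaks at 11 of 30, 15 of 37, 5 of 18, 18 of 60 and 64 of 77, in the same order. X had no proteasome or mitochondrial ribosomal protein gene of the lists.

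Several other lists had no promoter peak on X. None of 28 homeobox genes had one, nor any of 44 amine and peptide receptor genes, 33 chemoreceptor genes, 20 potassium channel genes, 15 muscle structure genes, 13 hedgehog-related and patched genes, 9 matrix genes, 6 innexins or 4 glucuronosyltransferases. The autosomal counts for these lists were 1 of 68, 0 of 79, 17 of 1331, 0 of 53, 3 of 28, 1 of 73, 0 of 13, 1 of 19 and 3 of 63. These counts too may be read against 9.59% of all X genes and 10.6% of all autosomal genes. The shorter X lists hold too few genes to state a share. Lists with a single one followed. Of 38 neuropeptide genes 1 had a peak, the insulin-like ins-39, whose peak of 70.4 holds the MEX core. Of 30 ligand-gated channel genes 1 did, the glutamate receptor glr-6 (51.8). The autosomal counts for those were 0 of 108 and 0 of 76.

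The remaining lists lay between these. Nuclear receptor genes, the family of NHR-6, had 4 of 27 on X (14.8%), nhr-1 (47.3), nhr-32 (43.9), nhr-255 (28.9) and nhr-3 (28.8), against 16 of 247 on the autosomes (6.48%). Of the 4, nhr-255 and nhr-3 had signals within 2 units of the lowest in the list. Cuticle collagens had 2 of 30, col-185 (40.9) and col-167 (28.7), against 4 of 151. Signalling genes had 2 of 14, the Ras pathway adaptor sem-5 (47.4) and the fibroblast growth factor egl-17 (31.2), against 6 of 50. Heterochronic genes, which time larval development, had 2 of 6, puf-9 and ain-1 (76.2), a microRNA silencing partner, against 1 of 10. The histone list had 2 of 5, the linker histones his-24 (61.1) and hil-3 (28.3), against 13 of 76. Single genes had a peak among 3 C-type lectins (clec-265, 54.96), 7 cytochrome P450 genes (cyp-43A1, 28.5), 4 vesicle GTPases (rab-14, 43.9) and 6 pan-neuronal genes (syd-2, 40.4), against 6 of 237, 3 of 67, 8 of 29 and 7 of 36 on the autosomes. The signals of col-167, hil-3 and cyp-43A1 were also within 2 units of the lowest in the list. The cyp-43A1 peak had 14.5 in replicate 1 and 4.9 in replicate 2 (rank 14491).

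Of the remaining motifs, several differed between X and autosomal summits inside or outside promoter windows. CCCTC, sought on both strands within 50 bp, was at 62 of 241 X promoter summits (25.7%, 20.6 to 31.6%), against 179 of 1327 autosomal ones (13.5%, 11.8 to 15.4%), a difference of 12.2 points (6.77 to 18.4). The autosomes ran from 11.9% to 16.9%. In the replicate lists the promoter shares were 27.5% on X and 12.5% on the autosomes for replicate 1, and 24.4% and 15.3% for replicate 2. Outside promoter windows CCCTC was at 17.2% of X and 17.5% of autosomal summits. There the replicates differed, with 21.3% on X and 14.4% on the autosomes in replicate 1, a difference of 6.89 points (1.81 to 12.6), and 17.7% and 18.6% in replicate 2. Tiles hold it in 6.54% of X and 6.04% of the autosomes. GC content within 50 bp of promoter summits was 48.5 ± 7.47% on X and 45.4 ± 7.55% on the autosomes (SD over 241 and 1327 peaks), and its part in the CCCTC share was not tested.

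GAGAGA went the other way outside promoters. It was at 59 of 262 X summits there (22.5%, 17.9 to 27.95%), against 329 of 890 autosomal ones (37.0%, 33.9 to 40.2%), a difference of −14.4 points (−20.1 to −8.19). Without peaks at small RNA genes or with the MEX core the shares were 26.6% on X and 40.2% on the autosomes. In the replicate lists they were 23.1% on X and 33.2% on the autosomes for replicate 1, and 22.7% and 35.0% for replicate 2. The autosomes ran from 26.3% to 43.65% in the thresholded list, all above X, but from 19.7% in replicate 1, where X lay within their range. Within promoter windows the shares were 27.4% on X and 21.8% on the autosomes, with an interval of the difference that included 0 (−0.117 to 11.9). Over all summits they were 24.9% on X and 27.9% on the autosomes, and 4.91% of X tiles and 5.24% of autosomal tiles hold it.

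CGTCTC was likewise less frequent at X summits outside promoter windows, 11.1% against 23.3% on the autosomes, a difference of −12.2 points (−16.5 to −7.07). Within them it was at 17.8% of X and 18.01% of autosomal summits, and tiles hold it in 2.39% of X and 2.79% of the autosomes. GACGCA was at 12.5% of X and 17.5% of autosomal summits, with tiles at 1.95% and 2.04%. CGTCTC, which reads GAGACG on the other strand, can overlap GACGCA in GACG and GAGAGA in GAGA, so these are not independent counts.

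The letters known for NR4A receptors were rare on both. AAAGGTCA lay within 50 bp of 4 X summits (0.795%) and 16 autosomal summits (0.722%), and 0.359% of X tiles and 0.266% of autosomal tiles hold it. The 4 X peaks were Xpeak6, Xpeak42, Xpeak170 and Xpeak323. The first 2 were in both replicates, Xpeak6 with 76.9 in replicate 1 and 46.0 in replicate 2. Xpeak42, of signal 74.8, lay 266 bp from the 5′ end of F17E5.2 and is shown with Xpeak6 above for comparison, at chrX:12393942-12394042 on the plus strand, with AAAGGTCA in capitals.
Xpeak42: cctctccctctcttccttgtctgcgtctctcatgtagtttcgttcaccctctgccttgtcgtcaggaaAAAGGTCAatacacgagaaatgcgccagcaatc
Xpeak170 had no matching peak in replicate 1, and Xpeak323 ranked 10235 there. The shorter AGGTCA, which the longer string contains, was at 23 X summits (4.57%) and 78 autosomal summits (3.52%), with tiles at 2.64% and 2.37%.

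The last 3 motifs had intervals of the difference that included 0. TGANTCA, the AP-1 site, was at 8.35% of X and 6.99% of autosomal summits (tiles 3.32% and 2.76%). TATAAA was at 5.57% and 4.33% (tiles 12.1% and 11.03%), and TAATTA, a homeodomain site, at 1.19% and 1.71% (tiles 5.23% and 4.64%). Both of these AT-rich strings were less frequent at summits than in tiles, on X and on the autosomes.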

How the data were processed

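The deposited peak lists in builds ce10 and ce11 come from 2 replicates and their pool. For each deposited peak the authors give a signal value, its summit and a −log10 q-value. The aligner, the caller and the signal scale were not given in the sources used here. Read depth is unknown from peak lists. Neither the control library nor signal tracks were analysed here. Signals were used within a list only.

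Genes came from Ensembl release 115 on WBcel235, the sequence of ce11, and sequences from the RefSeq genome of the same assembly. Python 3.11.15, numpy 2.4.6, pandas 2.3.3, scipy 1.17.1 and matplotlib 3.10.9 were used. Peaks were matched to replicates by an overlap of 1 bp. Peaks are not replicates, so no p-value was computed. Shares have Wilson 95% intervals and differences Newcombe 95% intervals, beside the range over the 5 autosomes and each replicate alone. The calculations were tested on simulated data. Members, lists and motifs were chosen with earlier results of these data known. Genes named were those with one of the 25 strongest X peaks in the promoter window, the 4 strongest members of each of 29 gene lists, and the X signal list. Any other was named after its values were seen, as were GTGGATA and the alternatives for the MEX core and the 100 strongest peaks. The microRNA list matched 2 X genes by name, both without a peak, so the annotated class was used.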

Additional observations from a re-analysis of the deposited data

How the results depend on the processing

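Of 81 alternative values, 65 stayed within the interval of the value reported and 16 moved outside it. For median signal and GC content, which have no interval, the range was 1 SD of the single-replicate values, and both changed sign under some settings. No difference whose interval left out 0 as reported changed sign. Some whose reported interval included 0 did, such as the intergenic one, from −0.46 points to 7.26 (5.82 to 8.70) in the relaxed pooled list. In the relaxed pooled list, which stops at 30000 peaks, the X minus autosome difference became 1.31 points for genes with a promoter peak, −5.61 for promoter summits, 7.26 for intergenic summits, −5.82 for the central 50% and 0.28 for the MEX core, and the log2 ratio of median signals became 0.036. In the stronger 1360 peaks the MEX core difference was 6.16 points and the log2 ratio −0.004. That ratio was 0.001 without summits near small RNA genes, and leaving out either replicate gave −0.079 to −0.043. The difference in GC content at summits, 1.37 points, became 0.76 in the stronger peaks, 0.64 in the relaxed list, 1.26 to 1.70 with a replicate left out, −0.12 within 25 bp and 2.55 within 100 bp. Among the 200 strongest peaks the difference in peaks outside promoter windows was 28.04 points. The causes were not tested. The ce10 density used ce11 chromosome lengths. No paired analysis was possible because there is 1 group. The depth behind each peak is unknown, an X share rests on 503 peaks or fewer, and shares of the strongest X peaks rest on 37 or fewer.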
